A study of Mus musculus with 8 samples.

Results

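The 9 complement genes described here were found in the table of 46517 genes by their Ensembl identifiers and symbols. They comprise the 3 C1q chains, the central components *C3* and *C4b*, the alternative pathway genes *Cfb* and *Cfp*, and the anaphylatoxin receptors *C3ar1* and *C5ar1*. Their mRNA was measured in osteoclasts differentiated from marrow cells of 4 *Elmo1*-/- mice, labelled global *Elmo1*-/-, and 4 *Elmo1*+/- control mice, 1 library per mouse. The mice were 6 to 8 weeks old, and cells of both genotypes received 10% medium conditioned by L929 cells, a source of M-CSF, and, over 7 days, GST-RANKL at 50 ng/ml. The titles call the controls wild-type, whereas their genotype label is *Elmo1*+/-, and mice with 2 intact copies were not analysed here. The libraries are numbered 1 to 4 in each genotype. According to the methods 2 experiments were run with 2 mice of each genotype, and which mice shared an experiment is not stated.

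The complement system is a cascade of secreted proteins that tags cells and debris for removal. C1q, a protein built from the products of *C1qa*, *C1qb* and *C1qc*, recognises the surfaces that start the classical pathway, and C4 joins the next step. C3 is the component on which all pathways converge. Factor B (*Cfb*) supplies the protease of the alternative pathway and properdin (*Cfp*) stabilises it, while *C3ar1* and *C5ar1* encode the receptors for the small fragments C3a and C5a, the anaphylatoxins. C1q and properdin are made largely by myeloid cells, and most circulating C3 is made by the liver. Osteoclasts, the multinucleated cells that resorb bone, form by fusion of precursors of the same lineage as macrophages. ELMO1 acts with DOCK proteins to activate Rac, a route also used in the engulfment of dying cells, which C1q can coat.

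The values are normalized counts, that is, reads on a gene divided by 1 scaling factor per library, and the libraries held between 20905502 and 40846651 reads on genes. *Elmo1* itself fell from 1593 ± 150.3 (SD, n = 4) to 292 ± 17.6 (SD, n = 4), a log2 difference of -2.44 (95% interval -2.64 to -2.24). Each *Elmo1*-/- library still held 240 to 379 reads on *Elmo1*, and their source was not examined. By limma with Benjamini-Hochberg adjustment *Elmo1* was the 1 gene past an adjusted p of 0.05 of the 14139 genes tested, which is 0.00707%. All 11 osteoclast markers and all 11 macrophage markers passed the filter on low values, and the 4 hepatocyte markers summed to at most 1.89 in any library. In these bulk samples fewer cells of a type and less RNA per cell cannot be told apart. The first principal component took 62.3% of the variance and put numbers 1 and 2 of each genotype on one side and numbers 3 and 4 on the other. *Elmo1*-/- mouse 1 was farthest out, at -52.3, and *Elmo1*-/- mouse 2 was nearest the middle, at -6.03, with numbers 3 and 4 at 24.6 to 31.9.

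Of the 9 complement genes, 7 were abundant and 2 were not. The 9 genes together took 0.317% to 0.690% of all reads on genes, lowest in *Elmo1*+/- mouse 4 and highest in *Elmo1*-/- mouse 1. Levels were compared between genes per kilobase of exon. On this scale *C1qb* had a mean normalized count of 24339 per kilobase over the 8 libraries, which placed it at rank 49 of the 14139 genes tested. *Cfp* followed at 17115 (rank 86) and *C1qa* at 13061 (rank 129). The receptor gene *C5ar1* had 7077 per kilobase, *C1qc* 6554, *C3* 4509 and *C3ar1* 4292. *Cfb*, at 50.6 per kilobase, stood at rank 10042, and *C4b* was at 1.03. The level and rank of *Cfb* are uncertain, since 79.5% of its exon bases also belong to another gene, as described below. *C5ar1* exceeded *C1qc* in 6 of 8 libraries and *C3* exceeded *C3ar1* in 3 of 8, so neither pair of neighbours was ordered beyond the spread between libraries. The other neighbours kept their order in 8 of 8 libraries. When the longest transcript replaced the merged exons as the length, *C1qc* rose to 10520 per kilobase and passed *C5ar1* at 7161, while the other 7 genes kept their places.

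**Figure D1:**
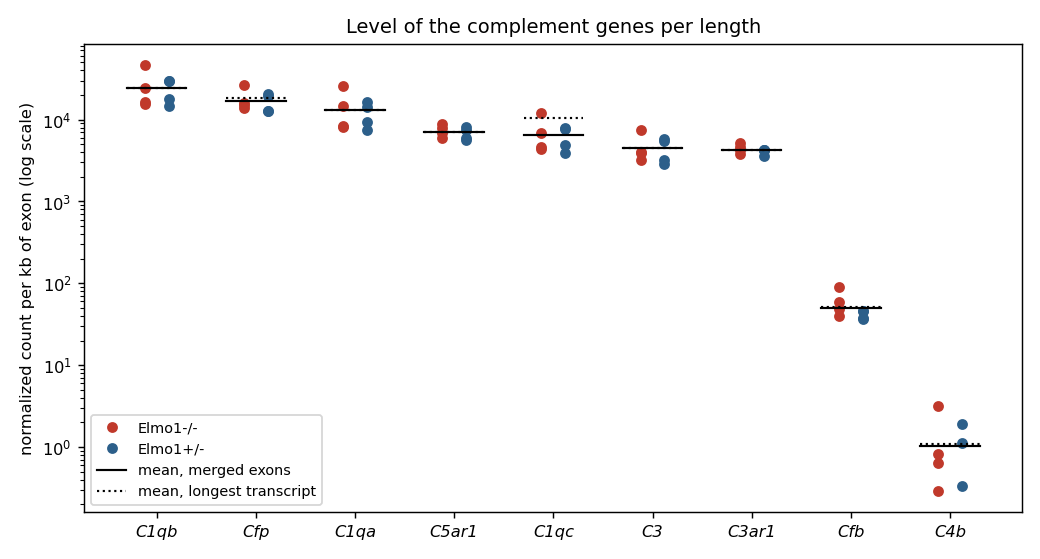
Normalized count per kilobase of exon (log scale) of the 9 complement genes, 1 point per library, red for *Elmo1*-/- and blue for *Elmo1*+/-. The solid line is the mean over 8 libraries on merged exons and the dotted line the mean on the longest transcript; *C4b* in *Elmo1*+/- mouse 3 was at 0 and is not drawn. The *C1qb* points are between 14698 and 46194, and *Cfb*, whose exon bases are mostly shared with another gene, lies between 36.7 and 91.4.

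The C1q chain genes varied more within each genotype than between the genotype means, and none differed by genotype beyond that spread. The 3 genes lie side by side on the minus strand of chromosome 4 in GRCm38, *C1qb* at 136880129 to 136886187, *C1qc* at 136889804 to 136893065 and *C1qa* at 136895917 to 136898803. *C1qa*, which encodes the A chain, had normalized counts of 26912, 15306, 8496 and 8638 in *Elmo1*-/- libraries 1 to 4. The control libraries 1 to 4 gave 14964, 16917, 9719 and 7716. The genotypes overlapped, and in both of them mice 1 and 2 were above mice 3 and 4. The means of *C1qa* were 14838 ± 8654 (SD, n = 4) and 12329 ± 4324 (SD, n = 4), a log2 difference of 0.17 (95% interval -0.73 to 1.07, adjusted p = 0.9999 by limma).

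*C1qb*, the gene of the B chain, had 50259, 26602, 17090 and 17632 in *Elmo1*-/- libraries 1 to 4, and 32461, 32563, 19247 and 15991 in the control libraries 1 to 4. Its log2 difference was 0.08 (95% interval -0.77 to 0.93). *C1qc*, the gene of the C chain, had 23331, 13351, 8386 and 9029 in *Elmo1*-/- libraries 1 to 4, and 14923, 15161, 9572 and 7496 in the control libraries 1 to 4, and its log2 difference was 0.13 (95% interval -0.66 to 0.93). As for *C1qa*, *Elmo1*-/- mouse 1 was the highest and *Elmo1*+/- mouse 4 the lowest of the 8 libraries for both genes. Without *Elmo1*-/- mouse 1 the log2 differences of *C1qa*, *C1qb* and *C1qc* were -0.18, -0.25 and -0.17, so the sign of each rested on that mouse, and it also turned without *Elmo1*+/- mouse 4 (-0.034, -0.12 and -0.062).

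The ratios of the C1q genes to each other varied less between libraries than the genes themselves. *C1qb* had between 1.95 and 2.17 times the normalized count of *C1qc*, a spread of 1.11-fold, whereas *C1qc* itself differed 3.11-fold between its lowest and highest library. The ratio of *C1qa* to *C1qc* lay between 0.957 and 1.15, a spread of 1.21-fold. That of *C1qb* to *C1qa* lay between 1.74 and 2.17, a spread of 1.25-fold. Outside the C1q genes, the ratio of *C3* to *Cfp* had a spread of 1.29-fold. The mean *C1qb* to *C1qc* ratio was 2.03 ± 0.087 (SD, n = 4) in *Elmo1*-/- osteoclasts and 2.12 ± 0.073 (SD, n = 4) in the controls. Across the 8 libraries Pearson's r between these genes on the log2 scale was 0.989 to 0.996, with the libraries in separate sets, so these values describe the sets as much as the genes. For comparison, the median gene tested differed 1.46-fold between its lowest and highest library.

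RefSeq windows from 250 bases before to 50 after the start (GRCm38.p6) were given for 6 of the 9 genes, *C1qb*, *C1qc*, *C3*, *C3ar1*, *C5ar1* and *Cfp*. Distances are counted from the RefSeq start. The gene positions come from another annotation, GENCODE. For *C1qc*, *C5ar1* and, by a few bases, *C3ar1* the RefSeq start lies inside the gene as positioned there. They were searched on both strands for GAGGAA (the core bound by PU.1, a factor of the myeloid lineage), TTGCNNAA (C/EBP), GAAANNGAA (an interferon-stimulated response element), GGGANTTCC (NF-kB) and TGCTGAC (a MAF half-site). None of the 5 is contained in another. Of the 32851 windows in the table, 28.3% hold GAGGAA, 10.8% TTGCNNAA, 8.56% GAAANNGAA, 1.68% GGGANTTCC and 4.67% TGCTGAC. The C1q windows, on the minus strand at chr4:136886151-136886450 and chr4:136892865-136893164, are shown because these neighbouring genes moved together. Capitals mark GAGGAA or its reverse complement, which starts 30 bases before the start of *C1qb* and 193 bases before that of *C1qc*.
C1qb: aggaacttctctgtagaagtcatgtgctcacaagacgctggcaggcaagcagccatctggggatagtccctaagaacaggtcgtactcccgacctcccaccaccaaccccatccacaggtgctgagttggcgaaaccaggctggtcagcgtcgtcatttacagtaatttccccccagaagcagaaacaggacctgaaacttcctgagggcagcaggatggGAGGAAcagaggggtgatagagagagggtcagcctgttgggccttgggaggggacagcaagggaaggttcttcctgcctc
C1qc: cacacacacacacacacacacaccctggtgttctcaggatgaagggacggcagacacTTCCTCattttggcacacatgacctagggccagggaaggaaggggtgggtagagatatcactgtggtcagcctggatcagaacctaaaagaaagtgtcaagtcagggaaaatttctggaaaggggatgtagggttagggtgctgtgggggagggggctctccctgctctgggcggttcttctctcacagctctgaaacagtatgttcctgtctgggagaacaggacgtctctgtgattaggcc

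*C3*, the component shared by all pathways (chromosome 17, 57203970 to 57228136, minus strand), was abundant in all 8 libraries and did not differ by genotype beyond the spread between mice. Its counts after normalization were 38646, 20899, 16661 and 19997 in *Elmo1*-/- libraries 1 to 4. The control libraries 1 to 4 gave 30160, 28099, 16462 and 14613. The genotypes overlapped, and the lowest of the mice numbered 1 and 2, at 20899, was just above the highest of those numbered 3 and 4, at 19997. The means were 24051 ± 9899 and 22333 ± 7928 (SD, n = 4 each), a log2 difference of 0.10 (95% interval -0.61 to 0.81, adjusted p = 0.9999 by limma), and without *Elmo1*-/- mouse 1 it was -0.15. The start region of *C3*, on the minus strand at chr17:57228087-57228386, is shown with a match to TTGCNNAA in capitals, which starts 45 bases before the start.
C3: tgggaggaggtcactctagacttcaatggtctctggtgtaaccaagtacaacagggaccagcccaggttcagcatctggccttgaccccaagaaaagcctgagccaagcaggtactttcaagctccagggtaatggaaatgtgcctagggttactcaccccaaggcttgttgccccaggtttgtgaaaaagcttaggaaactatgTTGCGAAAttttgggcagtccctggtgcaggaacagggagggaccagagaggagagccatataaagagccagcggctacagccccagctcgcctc

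*C4b*, the gene of the classical pathway component C4 (chromosome 17, 34728380 to 34743882, minus strand), was near 0. Its reads numbered 19, 3, 2 and 6 in *Elmo1*-/- libraries 1 to 4, and 7, 11, 0 and 2 in the control libraries 1 to 4, which is 50 in all. It did not pass the filter of a normalized count of 10 in at least 4 libraries and was not tested, and counts this low do not order the mice. Its near copy *C4a* had 77 reads in all. Of the 75-base windows of the longest *C4b* transcript, 23.5% also occur in *C4a*, so reads of these 2 genes could not always be assigned to 1 of them. No other member shared a window of this length with any of the complement genes listed.

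*Cfp*, the properdin gene (X chromosome, 20925454 to 20931555, minus strand), followed *C3*. Its counts after normalization were 46489, 28049, 24274 and 26024 in *Elmo1*-/- libraries 1 to 4. The control libraries 1 to 4 gave 35256, 33458, 22068 and 22071. *Elmo1*-/- mouse 1 stood well above the other 3 of its genotype, which were within the range of the controls. The log2 difference was 0.13 (95% interval -0.42 to 0.68, adjusted p = 0.9999 by limma), and without that mouse it was -0.079. The ratio of *C3* to *Cfp* lay between 0.662 and 0.855 in the 8 libraries. The start region of *Cfp*, on the minus strand at chrX:20931506-20931805, holds the reverse complement of GAGGAA 2 times, at 6 and 22 bases after the start, in capitals.
Cfp: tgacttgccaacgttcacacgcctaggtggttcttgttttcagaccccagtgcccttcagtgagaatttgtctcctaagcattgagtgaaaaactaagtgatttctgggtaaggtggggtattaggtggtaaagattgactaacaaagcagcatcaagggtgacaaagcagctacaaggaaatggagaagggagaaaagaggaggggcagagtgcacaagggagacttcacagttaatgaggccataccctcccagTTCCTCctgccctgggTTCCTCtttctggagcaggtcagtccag

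*Cfb*, the factor B gene (chromosome 17, 34856374 to 34862518, minus strand), was low and had the largest genotype difference among the 8 members tested, which did not pass the adjustment. It had 258, 165, 114 and 135 normalized counts in *Elmo1*-/- libraries 1 to 4, and 132, 131, 104 and 107 in the control libraries 1 to 4. Each *Elmo1*-/- mouse was above the control with its number, an order whose share over all genes was not counted. The genotypes overlapped, since *Elmo1*-/- mouse 3 was below *Elmo1*+/- mice 1 and 2. The means were 168 ± 63.7 and 118 ± 15.0 (SD, n = 4 each), a log2 difference of 0.44 (95% interval -0.10 to 0.99, unadjusted p = 0.0966, adjusted p = 0.9999 by limma). With the library number as a block the interval was 0.11 to 0.78, the unadjusted p 0.0147 and the adjusted p 0.9998 by limma. Whether mice of the same number form a pair is not given. Over all genes the block raised those at an unadjusted p under 0.05 by limma from 133 to 389. Without *Elmo1*-/- mouse 1, and with no block, the difference of *Cfb* was 0.22. In GRCm38, 79.5% of the exon bases of *Cfb* also belong to *Gm20547*, a gene on the same strand that spans *Cfb* and *C2* and was at 0 in all 8 libraries. Whether reads on both genes were dropped in counting is not given in the sources used here, and the level of *Cfb* is uncertain to that extent.

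The anaphylatoxin receptors were the steadiest members. *C5ar1*, the receptor gene for C5a (chromosome 7, 16246743 to 16259540, minus strand), had 22602, 20119, 15211 and 17540 in *Elmo1*-/- libraries 1 to 4. The control libraries 1 to 4 gave 20819, 19262, 15279 and 14674. Again the genotypes overlapped and mice 1 and 2 were above mice 3 and 4, but the highest library was only 1.54 times the lowest. *C3ar1*, the receptor gene for C3a (chromosome 6, 122847138 to 122856161, minus strand), had 22335, 18523, 16343 and 20149 in *Elmo1*-/- libraries 1 to 4. The control libraries 1 to 4 gave 18560, 18173, 18245 and 15475, with no split by number. The log2 differences were 0.11 (95% interval -0.24 to 0.46) for *C5ar1* and 0.13 (95% interval -0.12 to 0.38) for *C3ar1*, both with an adjusted p of 0.9999 by limma. Without *Elmo1*-/- mouse 1 they were 0.016 and 0.057, and without *Elmo1*+/- mouse 4 they were 0.028 and 0.068. Leaving out *Elmo1*-/- mouse 3 gave 0.21 for each receptor. The *C5ar1* value was 0.072 when *Elmo1*-/- mouse 2 was left out, 0.20 when control mouse 1 was, and 0.048 when control mouse 3 was. The window of *C5ar1*, on the minus strand at chr7:16259289-16259588, is shown with the reverse complement of GAAANNGAA in capitals, 66 bases before the RefSeq start. This match lies inside the gene as positioned above. The window of *C3ar1* held none of the 5 motifs.
C5ar1: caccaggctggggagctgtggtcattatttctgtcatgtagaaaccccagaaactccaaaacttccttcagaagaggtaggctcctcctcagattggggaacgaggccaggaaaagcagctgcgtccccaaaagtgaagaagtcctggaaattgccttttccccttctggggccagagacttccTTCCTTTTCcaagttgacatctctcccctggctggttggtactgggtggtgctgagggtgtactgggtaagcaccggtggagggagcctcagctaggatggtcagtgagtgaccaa

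**Figure D2:**
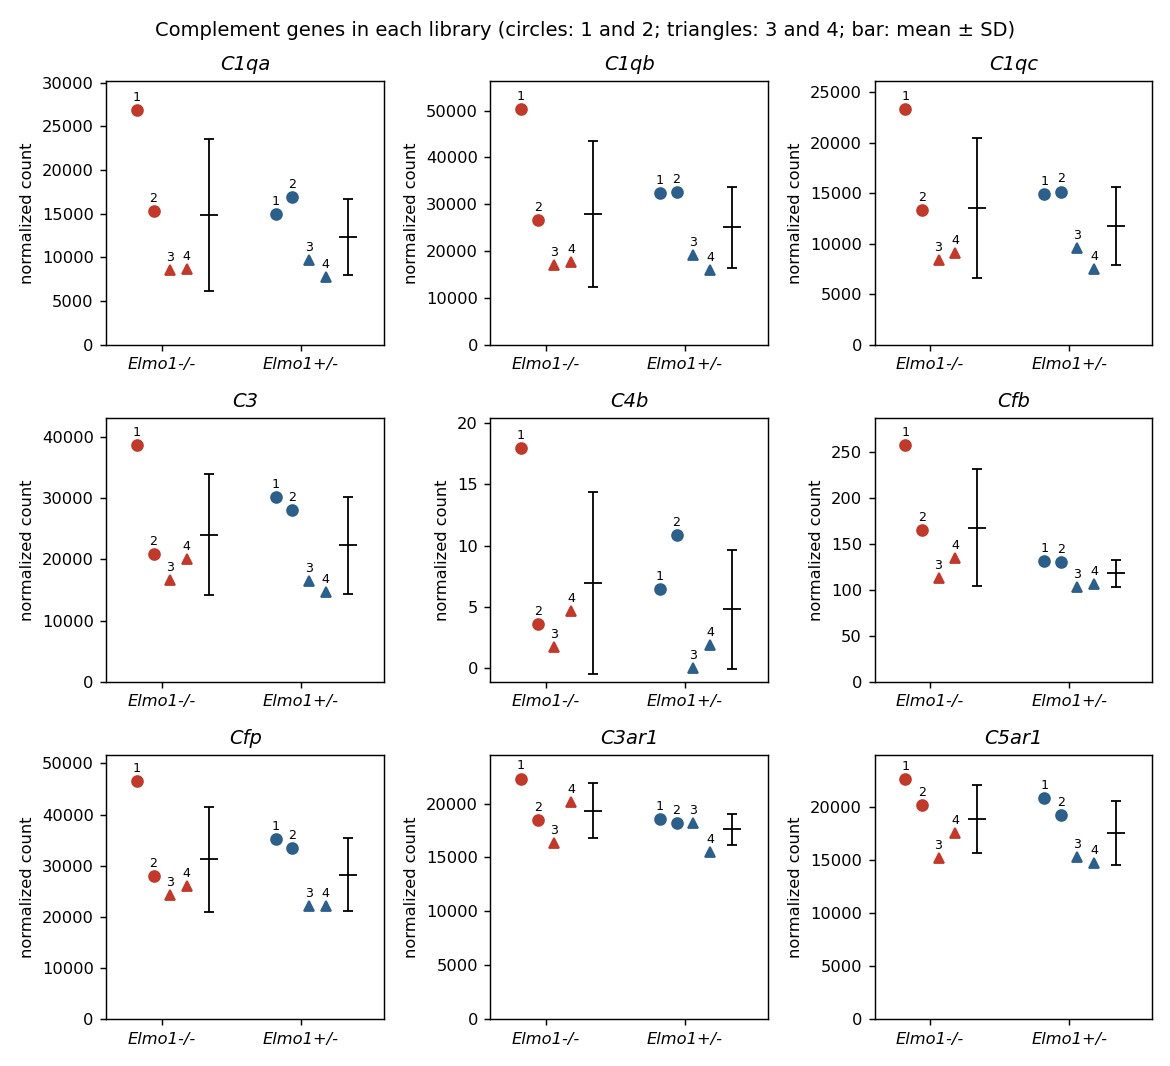
Normalized count of each complement gene in each library, with the library number beside each point, circles for numbers 1 and 2, triangles for 3 and 4, and a bar for mean ± SD (n = 4). Red is *Elmo1*-/- and blue *Elmo1*+/-; *Elmo1*-/- mouse 1 is the highest of 8 libraries in all 9 genes, from 18.0 for *C4b* to 50259 for *C1qb*.

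In the comparison of genotypes, 0 of the 8 members tested passed an adjusted p of 0.05 by limma, and 0 of 8 had an unadjusted p under 0.05, where 0.941% of all genes tested did. The quasi-likelihood test of edgeR and the Wald test of DESeq2 on the recovered reads also called 0 of 8. All 8 log2 differences were above 0, as were 6838 of the 14139 over all genes tested, with medians of 0.13 and -0.003. The members rose and fell together over the 8 libraries (Pearson's r 0.70 to 0.996 on the log2 scale), so their signs are not separate observations. *Elmo1*-/- mouse 1 was the highest library for each member, and without it 5 of the 8 differences were below 0. No member had genotypes that did not overlap, which was so for 0.941% of the genes tested. In the fit without a block, the intervals reached a log2 difference of 0.38 for *C3ar1* and of 1.07 for *C1qa*. With the library number as a block they reached 0.33 and 0.62.

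**Figure D3:**
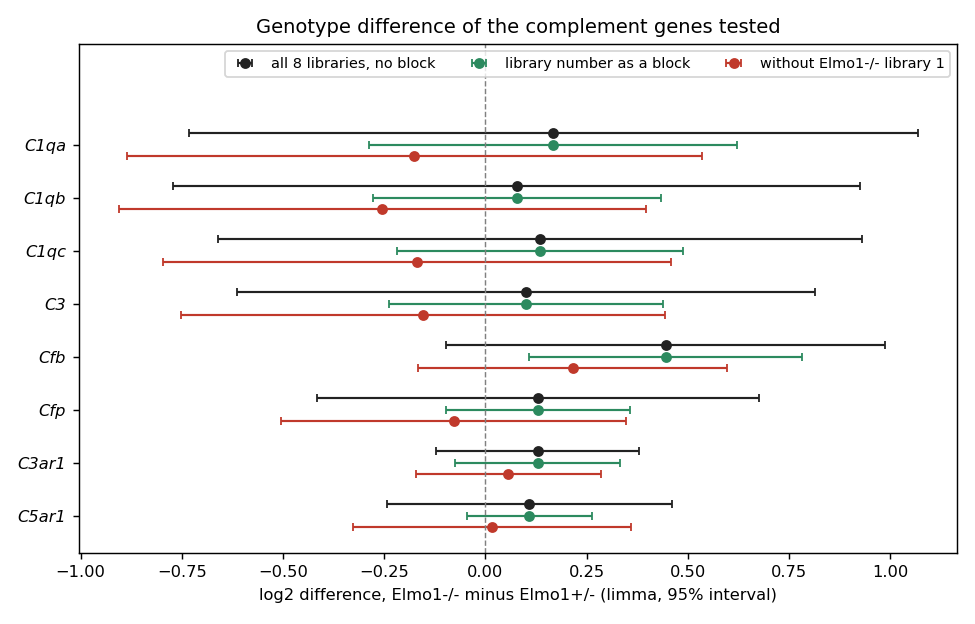
Log2 difference of each tested complement gene, *Elmo1*-/- minus *Elmo1*+/-, with its 95% interval from limma, for all 8 libraries (black), with the library number as a block (green) and without *Elmo1*-/- mouse 1 (red). Black points are between 0.08 and 0.44 and their intervals all cross 0; the red points of *C1qa*, *C1qb*, *C1qc*, *C3* and *Cfp* are below 0.

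The complement genes separated by library number rather than by genotype. In 6 of the 9 genes, *C1qa*, *C1qb*, *C1qc*, *C3*, *Cfp* and *C5ar1*, all 4 libraries numbered 1 or 2 were above all 4 numbered 3 or 4, and in 0 of 9 they were below. This split had been noticed in these data, so it is described without a test. Among all genes tested, 15.8% had the libraries numbered 1 and 2 all above and 18.1% had them all below. The mean of libraries 1 and 2 was 2.14 times that of 3 and 4 for *C1qa*, 2.03 times for *C1qb* and 1.94 times for *C1qc*. It was 1.74 times for *C3*, 1.52 times for *Cfp*, 1.49 times for *Cfb*, 1.32 times for *C5ar1* and 1.11 times for *C3ar1*. Both genotypes showed it, since for *C1qa* the factor was 2.46 in *Elmo1*-/- and 1.83 in *Elmo1*+/-, and for *C3* it was 1.62 and 1.87. On the log2 scale 0.693% of the genes tested had a larger difference in this direction than *C1qa* and 2.37% a larger one than *C3*. Without *Elmo1*-/- mouse 1, 6 of the 9 genes still had the sets apart, beside 16.8% of all genes.

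Cell type markers moved with the same split. All 11 osteoclast markers were lower in every library numbered 1 or 2 than in every one numbered 3 or 4. Their summed normalized count was 452902 to 696517 in the former and 1037846 to 1183436 in the latter, and the mean of *Mmp9*, the gene of a matrix protease and the one with the highest count, was 1.51 times as high in libraries 3 and 4. Of the 11 macrophage markers 6 were higher in every library numbered 1 or 2 and 0 were lower, with sums of 1744437 to 2128788 against 1336042 to 1488938. *Lyz2*, the lysozyme gene and the one with the highest count, had a mean 1.44 times as high in libraries 1 and 2. Named after their values were seen, *Ctsk*, the collagen-degrading protease gene of osteoclasts, was 2.87 times as high in libraries 3 and 4 and *Mrc1*, the mannose receptor gene of macrophages, 2.25 times as high in libraries 1 and 2. The macrophage gene *Adgre1*, which encodes F4/80, overlapped between the sets. Neutrophil markers, with *S100a8* the highest, summed to 13159 to 22618 in libraries 1 and 2 and 10361 to 13757 in libraries 3 and 4. Stromal markers summed to 1034 to 1438 and 624 to 1411, with *Col1a1* the highest of them, and the sums for endothelial, dendritic, B, T and NK cell markers were at most 660 in any library. By genotype the osteoclast sums were 452902 to 1183436 in *Elmo1*-/- and 593328 to 1100812 in *Elmo1*+/-. The macrophage sums were 1385875 to 2128788 and 1336042 to 1886403. The part of these differences in cell markers in the levels of the complement genes was not tested.

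**Figure D4:**
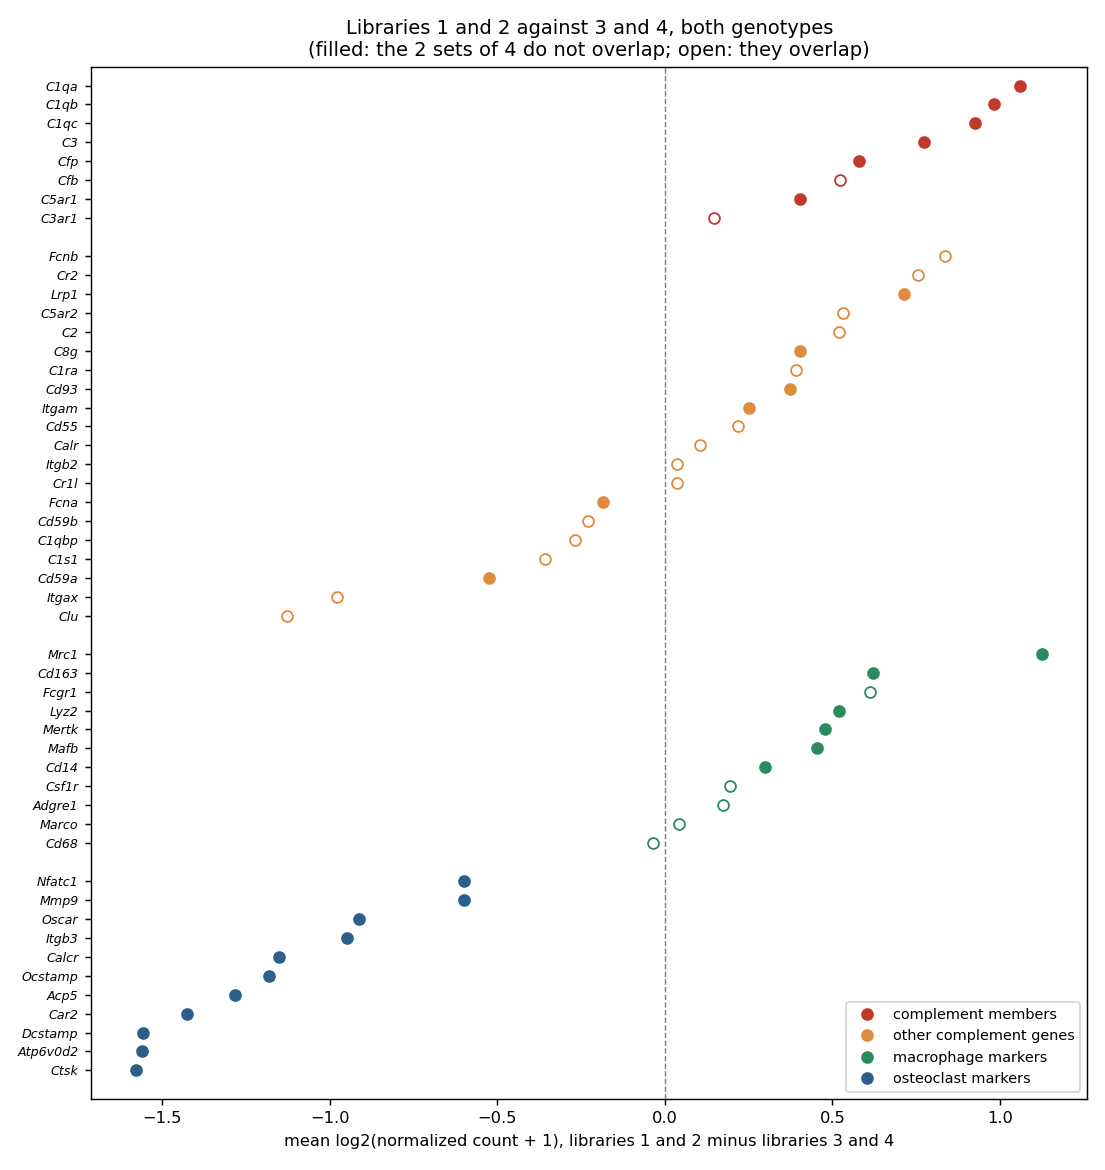
Mean log2(normalized count + 1) in the libraries numbered 1 and 2 minus that in those numbered 3 and 4, both genotypes together, for complement members (red), the other complement genes tested, of which 1 is not shown (orange), macrophage markers (green) and osteoclast markers (blue). Filled points mark genes whose 2 sets of 4 libraries do not overlap; *C1qa* is at 1.06 and *C3ar1* at 0.15, and all 11 osteoclast markers are below 0.

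Within each pair of numbers the genotype differences of the members tested were at most 0.35 in size on the log2 scale, other than that of *Cfb* in libraries 1 and 2. In libraries 1 and 2 the log2 difference of *Elmo1*-/- minus *Elmo1*+/- was 0.35 for *C1qa*, 0.17 for *C1qb*, 0.23 for *C1qc*, -0.03 for *C3*, 0.07 for *Cfp* and 0.65 for *Cfb*. In libraries 3 and 4 it was -0.02, -0.02, 0.04, 0.23, 0.19 and 0.24 in the same order. The receptors gave 0.15 and 0.11 for *C3ar1* and 0.09 and 0.13 for *C5ar1*. With 2 mice per genotype in each pair these are values without a test. The interaction of genotype and number set, fitted over all genes, called 0% of them by limma, and 0 of the 8 members. At an unadjusted p under 0.05 it had 378 genes by limma and 387 by edgeR, which also called 0.

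The rest of the complement system was present in parts. Of 46 other complement genes listed, 21 were tested, 8 were at 0 in every library, and 0 of the 21 passed the threshold between genotypes by limma, with 0 at an unadjusted p under 0.05 and 0 by edgeR. Their median log2 difference was 0.03, and 15 of the 21 were above 0, beside 6838 of the 14139 genes tested. None had genotypes that did not overlap. Of the genes for classical and lectin pathway initiation, 5 of 14 were tested, and *Fcna*, which encodes a ficolin, had the highest normalized count, not taken per length, with a mean of 699 ± 71.4 in *Elmo1*-/- osteoclasts and one of 744 ± 52.3 in the controls (SD, n = 4 each). *C2*, next to *Cfb* on chromosome 17, had 6.09 to 19.2 normalized counts, and 46.9% of its exon bases belong to *Gm20547* too. *Cfd*, the gene of factor D, the protease that activates factor B, was listed at 0 in all 8 libraries. Of the 7 terminal components only *C8g* was tested, and *C6*, *C7*, *C8a* and *C8b* were listed at 0.

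Among regulators and receptors a larger share was tested. Of the 6 fluid-phase regulators 2 were tested. *Clu*, the clusterin gene, was one of them and is named after its values were seen, with 10.4 to 27.5 normalized counts in libraries 1 and 2 and 23.4 to 41.1 in libraries 3 and 4. Of the 8 membrane regulators 4 were tested, with the highest normalized counts for *Cd55*, the decay-accelerating factor gene, at 2315 to 3368. Of the 10 other complement and C1q receptors 9 were tested, with the highest for *Calr*, the calreticulin gene, at 40761 to 54428. By library number, 4 of the 21 other genes tested, *C8g*, *Itgam*, *Cd93* and *Lrp1*, were higher in every library numbered 1 or 2, and 2, *Fcna* and *Cd59a*, were lower. These 6 were named for that split after their values were seen, and are 19.0% and 9.52% of the 21, beside 15.8% and 18.1% of all genes tested.

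The genes whose pattern over the 8 libraries was most like that of *C1qa*, by Pearson's r of log2 values and leaving out the members, were *Tnfaip2* (r = 0.993), *Neat1* (0.988), *Gm11675* (0.988), *Il21r* (0.987) and *Irf8* (0.985). For *C3* they were *Clec4a1* (0.996), *Xylt2* (0.994), *Ebi3* (0.994), *Fcrls* (0.993) and *Unc93b1* (0.993). These 8 points share the split by library number, and 823 genes had an r above 0.9 with *C1qa* and 1173 with *C3*. The size of the swing differed among them, since the mean of libraries 1 and 2 was 1.09 times that of 3 and 4 for *Tnfaip2* and 1.66 times for *Neat1*, beside 2.14 times for *C1qa*.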

How the data were processed

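Osteoclasts of 4 *Elmo1*-/- and 4 *Elmo1*+/- mice were sequenced as mRNA libraries (Illumina TruSeq, NextSeq). The authors deposited normalized counts, a signal of whole reads of a gene scaled in each library by the size factor of DESeq2. The submitters' processing notes name FastQC, STAR, featureCounts and DESeq2; tool versions, the genome build and the gene annotation are not stated there or in the methods. The deposited table also holds the authors' own fold changes, their standard errors, test statistics and p-values, which were not used. Gene names and positions came from GENCODE M21 (GRCm38), which matched 46005 of 46517 identifiers, and start regions from RefSeq.

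The members and the gene lists were chosen with earlier results of these data known. The genes named were *Elmo1*, the 9 members, the highest other complement gene of each role (1 is not reported here), genes that overlap or nearly copy a member, the highest marker of each list, and the 5 genes most like *C1qa* and *C3*.

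The genotypes were compared with limma 3.58.1 (R 4.3.3; trend, robust) on log2(normalized count + 1) for genes that reached 10 in 4 or more libraries. P-values were adjusted by Benjamini-Hochberg, with a threshold of 0.05. Whole reads were recovered by dividing each library by its smallest step, which made 100% of values whole (tolerance 0.01). These served edgeR 4.0.16 and DESeq2 1.42.0 as alternatives. Others were equal totals, TMM, no filter, a minimum of 50, pseudocounts of 0.5 and 8, the replicate number as a block, the number set as a term, and each library left out. Each same-numbered pair of libraries correlated above 0.1 in its deviations from the genotype means (0.156 to 0.703), the rule set for the block. *Elmo1*-/- mouse 1 with control mouse 2 had 0.691, mouse 4 with control mouse 3 had 0.614, and mouse 3 with control mouse 4 had 0.561. *Elmo1*-/- mouse 2 with control mouse 1 had 0.026. The rule therefore cannot tell pairing by number from the split into sets, and what the numbers stand for is not given. No 2 libraries of a genotype were copies (chi-square per gene 8.72 to 189.8). The scripts were tested on simulated data.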

Additional observations from a re-analysis of the deposited data

Results flagged for a closer look

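In groups of 4 libraries, a highest or lowest value was singled out where its gap to the nearest other, as a share of the whole range of the group, passed the 95% critical value of Dixon's test. Of 62 groups of complement genes and *Elmo1*, 4 were singled out, and chance gives about 5%. *Cfp* was high in *Elmo1*-/- mouse 1, at 46489 normalized counts, with a gap of 0.830 of the range. *Lrp1*, the gene of an endocytic receptor, was high within its genotype in the same mouse at 20431, while *Elmo1*-/- mice 2 to 4 had 12540, 12097 and 11430. Control mice 1 and 2 were above that mouse, at 22794 and 20747, and control mice 3 and 4 had 11390 and 10639. *C3ar1* was low in *Elmo1*+/- mouse 4 at 15475, with the other 3 controls between 18173 and 18560. *Cd59b*, a gene of the membrane regulator CD59, was high in *Elmo1*-/- mouse 4 at 27.2, on 35 reads, and 2 of the controls were above that.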

How the results depend on the processing

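All 18 alternative settings called *Elmo1*, and 0 complement members and 0 other complement genes were called in any of them. The count of genes called was 2 with DESeq2, and leaving out 1 library at a time it was 1 to 2; the further gene, *Gpr137b-ps*, is no complement gene. At an unadjusted p under 0.05 the count was 133, 142 by edgeR and 137 by DESeq2, and it rose to 389 with the replicate number as a block; the block called 1 gene and changed no call. None of the settings that kept all 8 libraries turned a member's direction. Leaving out 1 library did so for 11 values, of 162 over all settings. Over the libraries left out 1 at a time, the log2 differences ran from -0.18 to 0.38 for *C1qa*, -0.25 to 0.26 for *C1qb*, -0.17 to 0.32 for *C1qc*, -0.15 to 0.27 for *C3*, -0.079 to 0.25 for *Cfp*, 0.22 to 0.61 for *Cfb*, 0.057 to 0.21 for *C3ar1* and 0.016 to 0.21 for *C5ar1*. The lowest value of each came without *Elmo1*-/- mouse 1. Without *Elmo1*+/- mouse 4 it was -0.034, -0.12, -0.062 and -0.080 for *C1qa*, *C1qb*, *C1qc* and *C3*, and without *Elmo1*+/- mouse 3 it was -0.027 for *C1qb* and -0.023 for *C3*. Per longest transcript in place of merged exons, 2 members changed places. With equal library totals or TMM factors the median gene moved by 0.006 and -0.001 on the log2 scale. The number of the 9 members with libraries 1 and 2 all above 3 and 4 was 6 to 8 when 1 library was left out. It was 7 without *Elmo1*-/- mouse 2 and 8 without *Elmo1*-/- mouse 4, beside 25.5% and 18.4% of all genes tested. Both of these counts include *C4b*, which was not tested and was too low to order the mice, and the count of 8 also includes *Cfb*. For the other libraries the share of all genes tested was 16.8% to 18.7%. The interaction called 0 genes in each setting in which it was fitted. Depth limited *C4b* and *C4a*, with 50 and 77 reads in all.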

Other observations

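Beyond the members, *C1ra* and *Vsig4* are described here because of their values. *C1ra*, which encodes the C1r protease that C1q carries, had 328, 295, 199 and 243 normalized counts in *Elmo1*-/- libraries 1 to 4, and 245, 222, 172 and 212 in the control libraries 1 to 4. Each *Elmo1*-/- mouse was above the control with its number, while the genotypes overlapped. The same order held for *Cfb* and for *C2*, *Cr1l* and *C5ar2*, and its share over all genes was not counted. For *Cr1l* the mice numbered 2 were nearly equal, at 1939.6 and 1938.8. *Fcna* had the reverse order, with each *Elmo1*-/- mouse below the control with its number. The log2 difference of *C1ra* was 0.31 (95% interval -0.09 to 0.70, unadjusted p = 0.111 by limma). With the replicate number as a block, which is not known to mark pairs, the unadjusted p was 0.0111 and the adjusted p 0.9998 by limma. Without *Elmo1*-/- mouse 1 the difference was 0.20 (95% interval -0.18 to 0.58). *Vsig4*, a macrophage receptor gene for C3 fragments, was too low to be tested, at 8.28 to 24.6 normalized counts in libraries 1 and 2 and 0.835 to 4.57 in libraries 3 and 4.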
